A study of Mus musculus with 16 samples.

Results

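The 6 genes described here, Cnn1, Myh11, Tagln, Acta2, Mylk and Smtn, encode the contractile apparatus by which smooth muscle cells are usually recognised. They were followed in the retroperitoneal fat of gonadectomised mice, a depot at the back of the abdomen. Members were chosen by name, with earlier results of these data known. Every probe set (a group of short probes for 1 transcript) whose single listed gene symbol is 1 of the 6 was taken. Each gene had exactly 1 such probe set. They are 6 of the 8251 genes with a probe set of their own, and of the 12422 probe sets other than the array's own controls.

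All 16 arrays came from gonadectomised mice, and each sex had 8. Vehicle-treated mice gave 2 arrays per sex. The other 6 of each sex came from mice that received 0.1 mg of dihydrotestosterone (DHT), an androgen that cannot be turned into oestrogen, by subcutaneous injection. Each of these was taken at a different time before necropsy: early (1, 3 or 6 h) or late (12, 18 or 24 h). The labels give a time of 24 h for the vehicle samples too. Fat was collected from all mice of a group, per the labels' protocols, and the number of mice behind an array, their strain and their age are not given in the sources used here. Nothing says that arrays of a group came from separate animals, so p-values measure the spread between these arrays, which may be technical. No group with intact gonads was analysed here, and sex and the kind of gonadectomy cannot be told apart.

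Smooth muscle contracts when calcium activates myosin light chain kinase, which phosphorylates the regulatory light chain of smooth muscle myosin and lets the motor pull on actin filaments. Calponin, transgelin and smoothelin bind those filaments and are made at high levels in differentiated smooth muscle cells. In fat such cells lie in the walls of arteries and veins, and the actin and transgelin genes are also active in pericytes and in activated fibroblasts. Many of these genes are switched on by serum response factor with its partner myocardin, which bind a DNA element called the CArG box.

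CArG boxes were looked for because the 6 genes are known as targets of that factor. Of the 6 genes, 4 have an entry in RefSeq's promoter table (GRCm38.p6), which holds 250 bases before and 50 after a listed transcription start: Cnn1, Acta2, Mylk and Smtn. The Mylk window (chr16:34784700-34784999) lies inside the gene, which starts at 34745199. Sequence before the first base of Mylk was thus not searched. The exact CArG box, which reads the same on both strands, was found in none of these 4 windows and in 1.629% of the 32851 promoters of the table. When 1 of its inner bases was allowed to be C or G, 9.984% of all promoters held the element, and among the 4 genes the Acta2 window held it at 2 places. These elements lie 84 to 75 and 34 to 25 bases before the listed start. They are shown 5′ to 3′ in capitals within stretches of 30 bases, at chr19:34255438-34255467 and chr19:34255388-34255417 (minus strand).
Acta2 upstream site: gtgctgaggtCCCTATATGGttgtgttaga
Acta2 downstream site: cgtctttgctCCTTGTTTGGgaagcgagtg
These matches describe the letters of the windows, and nothing was measured at them.

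The deposited values are MAS5 signals, a linear brightness in which every array has the same trimmed mean of 500, so that a level is relative to its array. Signals of different probe sets are not compared with each other. Adipocyte markers were strongly detected: the summed signal of 15 of them lay between 136592 and 189396 on the female arrays and between 163870 and 234289 on 7 of the male arrays. On the second male vehicle array that sum was 29279, while the summed signal of 19 skeletal muscle genes was 391485 there, against 42859 to 74207 on the other male arrays. That array is called the muscle-rich array, and the tests that use it are given with it (16 arrays) and without it (15 arrays). One female array, at 12 h, had a sum of 93407 over 6 exocrine pancreas genes, against 2453 to 8284 on the other female arrays. The 3′ to 5′ signal ratio of the actin control, a measure of RNA integrity, was 0.93 to 1.24 on male and 0.92 to 1.32 on female arrays. That of the pyruvate carboxylase control was 2.32 to 4.12 and 2.15 to 3.24. Antisense control probe sets had a mean log2 signal of 6.75, 6.38 and 6.61 on female arrays at 1, 3 and 6 h. At 12, 18 and 24 h it was 8.92, 9.96 and 8.84, and on male arrays 6.71 to 9.28. The part of this in early against late values was not tested.

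The fat of gonadectomised females carried more transcript of the smooth muscle genes than that of gonadectomised males. With 16 arrays Cnn1, Myh11, Tagln, Acta2 and Mylk passed the test of females against males (limma, adjusted p under 0.05). Smtn passed it with 15 arrays, where 6 of 6 members were higher in females. Among all 7453 probe sets tested, 4.74% were higher in females with 16 arrays and 8.91% with 15. Cnn1 passed the filter on low signal only through its female arrays and had to differ for that reason. Of the 5 members other than Cnn1, 4 passed with 16 arrays. Without the muscle-rich array the male mean of Smtn (118) was also below that filter (127), so its pass with 15 arrays carries a like limit. The median difference of the 6 members was 1.48 on the log2 scale with 16 arrays and 1.69 with 15, beside 0.017 and 0.0080 for all probe sets tested. In a bulk sample, fewer cells of a type and less RNA per cell cannot be told apart.

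Myh11 encodes the heavy chain of smooth muscle myosin, the motor itself. Its female signals ran from 1018 through a median of 1294 to 1913 (mean 1397 ± 359, SD, n = 8). Its male signals ran from 244 through a median of 271 to 867 (mean 368 ± 210, SD, n = 8). The highest male value was that of the muscle-rich array, and the other 7 male arrays ended at 399, so that no male array reached the lowest female array. Females were higher by 1.97 ± 0.26 (log2 difference ± SE, adjusted p = 0.00099) with 16 arrays, and by 2.18 ± 0.16 (adjusted p = 3.21e-06) with 15. The ratio of the mean signals was 3.80 with all 8 male arrays and 4.72 with 7.

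Mylk encodes myosin light chain kinase. Its female signals ran from 3145 through a median of 4002 to 4498, and its male signals from 1497 through 2537 to 3993. The 2 ranges overlapped through 2 male arrays, those at 12 h (3993) and 18 h (3313), which lay above the lowest female array, and at each of the 6 DHT times the female array was above the male array of that time. The female to male ratio was smallest at 12 h (1.13) and was 2.06 between the vehicle means. The difference was 0.64 ± 0.13 (limma, adjusted p = 0.0128) with 16 arrays and 0.59 ± 0.10 (adjusted p = 0.00177) with 15.

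Acta2 encodes smooth muscle alpha-actin, the main actin of these filaments. Female signals ran from 1276 through 1562 to 2447 (mean 1673 ± 432, SD, n = 8) and male signals from 691 through 979 to 1096 (mean 941 ± 142, SD, n = 8). The groups did not overlap, and the ratio of the means was 1.78. The difference was 0.80 ± 0.12 (limma, adjusted p = 0.0021) with 16 arrays and 0.78 ± 0.11 (adjusted p = 0.000423) with 15.

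Tagln encodes transgelin (SM22), a small protein that bundles actin. It separated the sexes with little spread among males: male signals ran from 647 through 766 to 833 (mean 743 ± 72.3, SD, n = 8), and female signals from 1827 through 2341 to 3194 (mean 2451 ± 505, SD, n = 8). The lowest female array was 2.19 times the highest male array. The muscle-rich array was the highest male array, at 1.14 times the mean of the other 7. The difference was 1.68 ± 0.14 (limma, adjusted p = 3.16e-05) with 16 arrays and 1.71 ± 0.13 (adjusted p = 4.40e-06) with 15.

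Cnn1 encodes calponin 1, which binds actin and slows the myosin motor. It had the largest difference of the 6. Male signals ran from 12.4 through 17.0 to 46.2 and female signals from 313 through 429.9 to 777, with no overlap. The male mean lay at the 11.9th percentile of all probe sets and the female mean at the 69.6th. The difference was 3.69 ± 0.23 (limma, adjusted p = 3.29e-06) with 16 arrays and 3.79 ± 0.21 (adjusted p = 4.04e-07) with 15. Because the male signals were about as small as the 16 added before taking log2, its size depended on that number: it was 4.44 with 1 added and 2.62 with 64. The suffix of the probe set's name marks probes that can match several related transcripts.

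Smtn encodes smoothelin, an actin-binding protein of contractile smooth muscle. The sexes were apart on its DHT arrays and overlapped on its vehicle arrays. On the DHT arrays, female signals ran from 355 through 481 to 504 and male signals from 49.99 through 91.6 to 157, with no overlap. On the vehicle arrays the females gave 103 and 322, and the males 247 and, on the muscle-rich array, 855. Over 16 arrays the difference was 1.27 ± 0.52 and did not pass (limma, adjusted p = 0.201). It was 1.66 ± 0.37 (adjusted p = 0.00993) with 15 arrays and 2.12 ± 0.21 (adjusted p = 0.000193) over the 12 DHT arrays alone, a comparison added after the data were seen. The male mean was 118 without the muscle-rich array and 96.1 on the DHT arrays, both below the filter on low signal (127). In both fits the place of Smtn among the tested probe sets thus rests on its female arrays or on the muscle-rich array.

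Over those 12 DHT arrays Myh11, Tagln, Acta2 and Mylk were higher in females, beside 7.12% of all probe sets tested. So were Cnn1 and Smtn, whose male means there were below the filter on low signal. Female arrays lay wholly above male arrays for 3 of the 5 members other than Cnn1, namely Myh11, Tagln and Acta2, with 16 arrays and also with 15, beside 3.41% and 3.84% of all probe sets tested. They did so for Cnn1 too, whose place among the tested probe sets rests on its female arrays. Whichever of the 16 arrays was left out, Myh11, Tagln, Acta2 and Mylk passed, beside 271 to 1175 of the 7453 probe sets in either direction. Cnn1 passed each time too, with the limit just given, and Smtn passed only without the muscle-rich array.

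**Figure D1:**
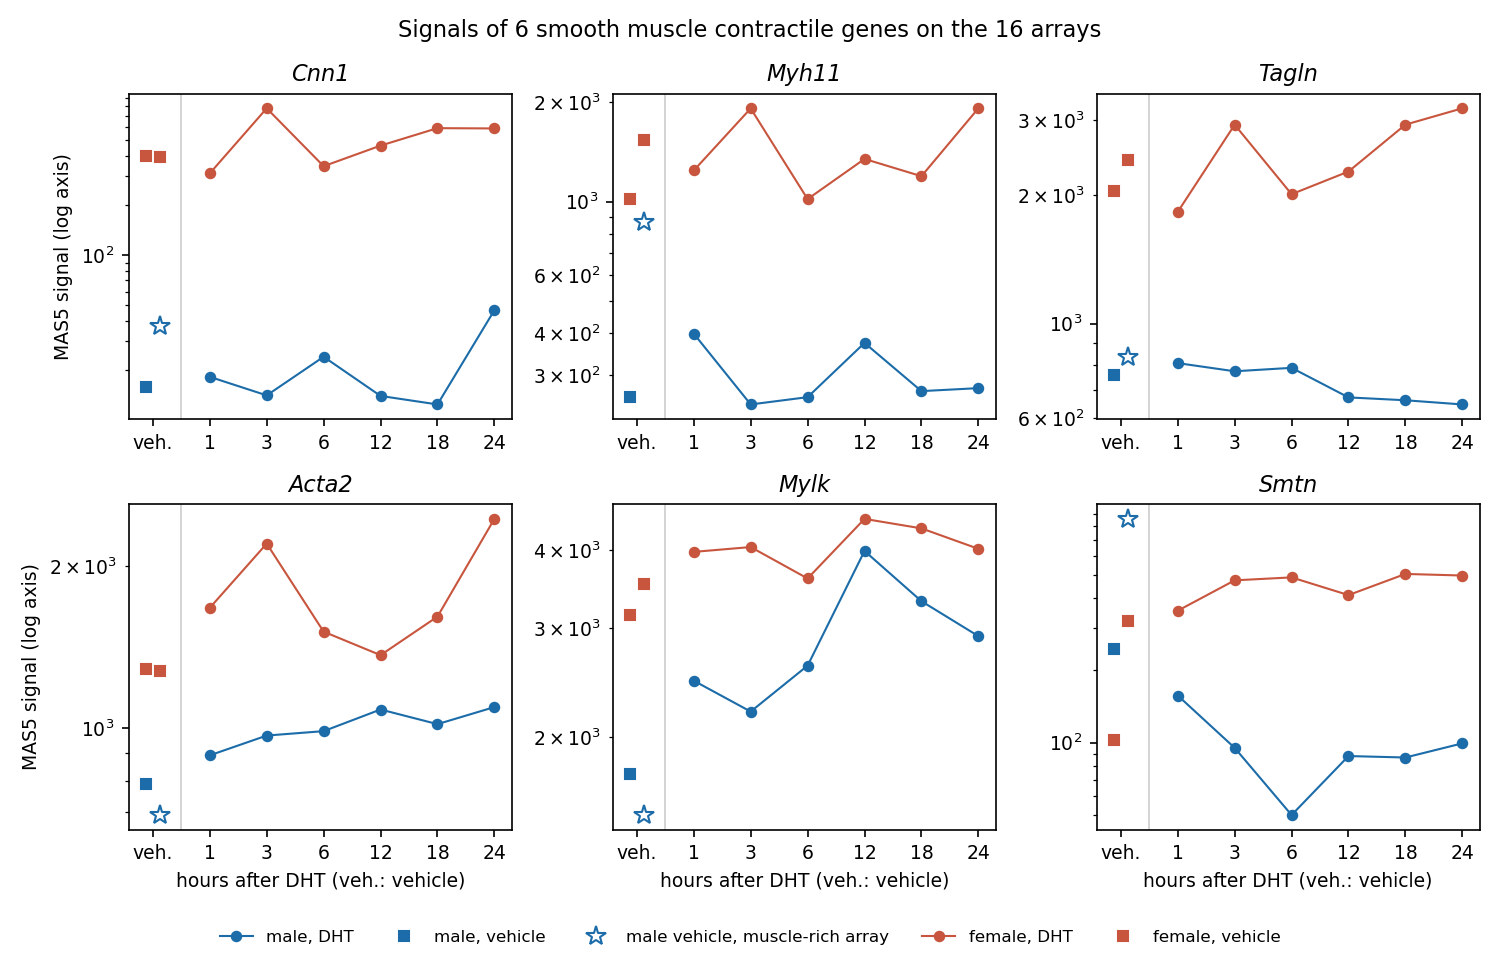
MAS5 signal (log axis, arbitrary units) of each of the 6 genes on the 16 arrays, against hours after DHT, with the vehicle arrays at the left. Blue marks males and red females, squares are vehicle arrays, circles joined by lines are single DHT arrays, and the star is the muscle-rich male vehicle array. Red points lie above all blue points for Cnn1, Myh11, Tagln and Acta2. The star is the highest male point for Myh11 (867), Tagln (833) and Smtn (855) and the lowest for Acta2 (691) and Mylk (1497).

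**Figure D2:**
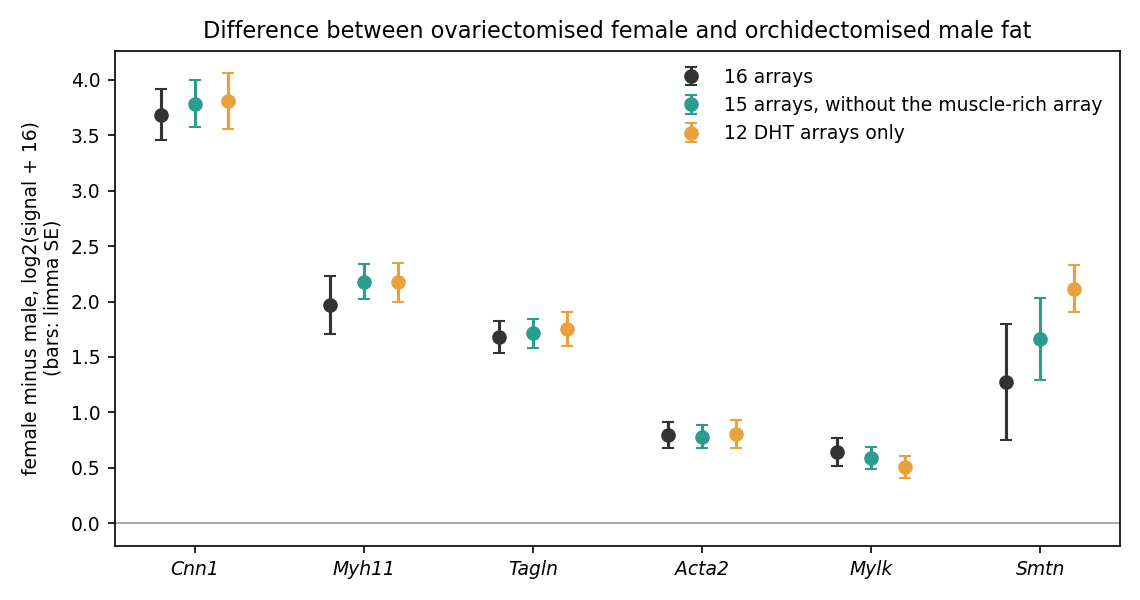
Difference between females and males on the log2(signal + 16) scale for each gene, with limma's standard error as bars. The 3 colours are the fits with 16 arrays, with 15 arrays (no muscle-rich array) and with the 12 DHT arrays only. All points lie above 0, from 0.51 (Mylk, 12 arrays) to 3.81 (Cnn1, 12 arrays), and Smtn moves most between the fits, from 1.27 to 2.12.

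The muscle-rich array touched the members unevenly. Against the mean of the other 7 male arrays its signal was 7.27 times as high for Smtn, 2.93 times for Myh11 and 1.80 times for Cnn1. It was 1.14 times for Tagln, 0.71 times for Acta2 and 0.55 times for Mylk. Other genes that smooth muscle shares with skeletal muscle were far higher on it: Tpm2 (a tropomyosin) 16.6 times, Pdlim3 (a Z-disc protein) 27.5 times and Des (desmin, an intermediate filament protein) 5.96 times. The part of skeletal muscle in the 16-array values of these genes was not tested beyond leaving the array out and fitting a muscle covariate.

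Contractile partners of the 6 genes were higher in females in the same arrays. Of 22 such genes listed, 17 had a probe set and 15 passed the filter. Of these 15, 8 were higher in females with 16 arrays and 10 with 15, and none was lower. Among all probe sets tested, 4.74% and 8.91% were higher in those fits. Their median difference was 0.54 with 16 arrays and 0.59 with 15. Actg2, the gamma actin of smooth muscle, had a mean signal of 726 on 7 male arrays and 1651 on the female arrays, a difference of 1.18 ± 0.14 with 15 arrays (limma, adjusted p = 0.000145). With 16 arrays the male mean was 706 and the difference 1.20 ± 0.14 (adjusted p = 0.000465). Tpm1 (tropomyosin 1; 1.02 with 16 arrays and 1.02 with 15), Actn1 (alpha-actinin 1; 1.02 and 0.98), Cnn3 (calponin 3; 0.92 and 0.85), Tpm4 (tropomyosin 4; 0.77 and 0.61) and Csrp1 (a LIM protein of smooth muscle; 0.75 and 0.59) also passed in both fits. So did Cnn2 (calponin 2; 0.75 and 0.78) and Myl9 (the regulatory light chain that Mylk phosphorylates; 0.54 and 0.51).

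Pdlim3 (0.45 with 16 arrays and 1.02 with 15) and Tagln2 (transgelin 2; 0.42 and 0.29) passed only in the fit with 15 arrays. Tpm2 (-0.24), Des (-0.10) and Pdlim7 (-0.19) did not pass with 16 arrays, nor with 15, where their values were 0.27, 0.25 and 0.25.

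Of 25 genes listed for the signalling that starts or stops contraction, 12 had a probe set and 7 were tested. Of these 7, 1 was higher in females with 16 arrays and 2 with 15, beside 4.74% and 8.91% of all probe sets tested. Mrvi1, the inositol trisphosphate receptor partner by which nitric oxide relaxes smooth muscle, was higher in females by 1.21 ± 0.29 (limma, adjusted p = 0.0303) with 16 arrays and 1.20 ± 0.29 (adjusted p = 0.0162) with 15. Rgs5, a brake on G protein signalling that is abundant in pericytes, was added with 15 arrays (0.61 ± 0.10, adjusted p = 0.00136). Rhoa (-0.11), Rock1 (0.32), Ppp1cb (0.034), Kcnma1 (0.031) and Cacna1c (0.29) did not pass with 16 arrays, nor with 15, where their values were -0.35, 0.28, 0.33, 0.25 and 0.29. The list's median was 0.29 with 16 arrays and 0.29 with 15.

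Of 21 genes listed for smooth muscle transcription, 15 had a probe set and 10 were tested. Of these 10, 3 were higher in females with 16 arrays and 4 with 15, beside 4.74% and 8.91% of all probe sets tested. Gata6, a factor of vascular smooth muscle, was higher in females by 1.24 ± 0.27 (limma, adjusted p = 0.0179), Tgfb3, a ligand of the TGF-beta family, by 1.17 ± 0.17 (adjusted p = 0.00192) and Fhl2, a LIM protein that binds serum response factor, by 0.78 ± 0.14 (adjusted p = 0.00781), all with 16 arrays. With 15 arrays these 3 passed too, at 0.99, 1.30 and 0.85. Tgfb1 was added with 15 arrays (0.91 ± 0.23, adjusted p = 0.0184). Klf4, a factor that opposes the contractile state, had a difference of -0.17 with 16 arrays and -0.31 with 15 and did not pass. The list's median was 0.16 with 16 arrays and 0.17 with 15.

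Markers of some other cell types differed between the sexes as well. Among all probe sets tested, 4.74% were higher in females with 16 arrays and 8.91% with 15. Of 9 fibroblast and matrix genes tested, 6 were higher in females with 16 arrays and 7 with 15, and their summed signal lay between 67784 and 107824 on the female arrays and between 26667 and 37707 on the male arrays. Of 13 macrophage genes tested, 4 were higher in females with 16 arrays and 9 with 15 (sums over the 15 on the array of 34526 to 46690 in females and 7163 to 32462 in males). Of 7 pericyte genes, Pdgfrb (0.49 with 16 arrays and 0.44 with 15) and Anpep (0.74 and 0.61) were higher in both fits, and 4 genes were with 15 (sums of 5629 to 6727 against 4942 to 6287). Of 11 endothelial genes, none passed with 16 arrays. With 15 arrays 1 was higher (Tie1, 0.37) and 1 lower (Flt1, -0.33) (sums of 10331 to 15131 in females and 5926 to 12001 in males). At 1 of 11 in each direction, that was near the share of all probe sets tested (8.91% higher and 6.86% lower).

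Of 18 skeletal muscle genes tested, none was higher in females in either fit, and 6 were lower with 15 arrays, beside 6.86% of all probe sets tested (sums over the 19 on the array of 22605 to 55249 in females and 42859 to 391485 in males). Of 15 adipocyte genes, none was higher in either fit, and 8 were lower with 15 arrays. Of 4 mesothelial genes tested, Wt1 was higher in both fits (1.03 and 0.98), and Upk3b was lower with 15 arrays (-0.38) (sums over the 7 on the array of 1172 to 1691 in females and 409 to 2090 in males). Of 6 exocrine pancreas genes, Prss2 was higher in both fits (3.34 and 3.26). Among all probe sets tested, 4.74% were higher with 16 arrays and 8.91% with 15. No listed marker was at a signal of 0. Smooth muscle transcripts were thus higher in females beside matrix, macrophage and pericyte markers. With 15 arrays, some adipocyte (8 of 15) and skeletal muscle (6 of 18) markers were lower. The part of each in the members' difference was not tested.

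**Figure D3:**
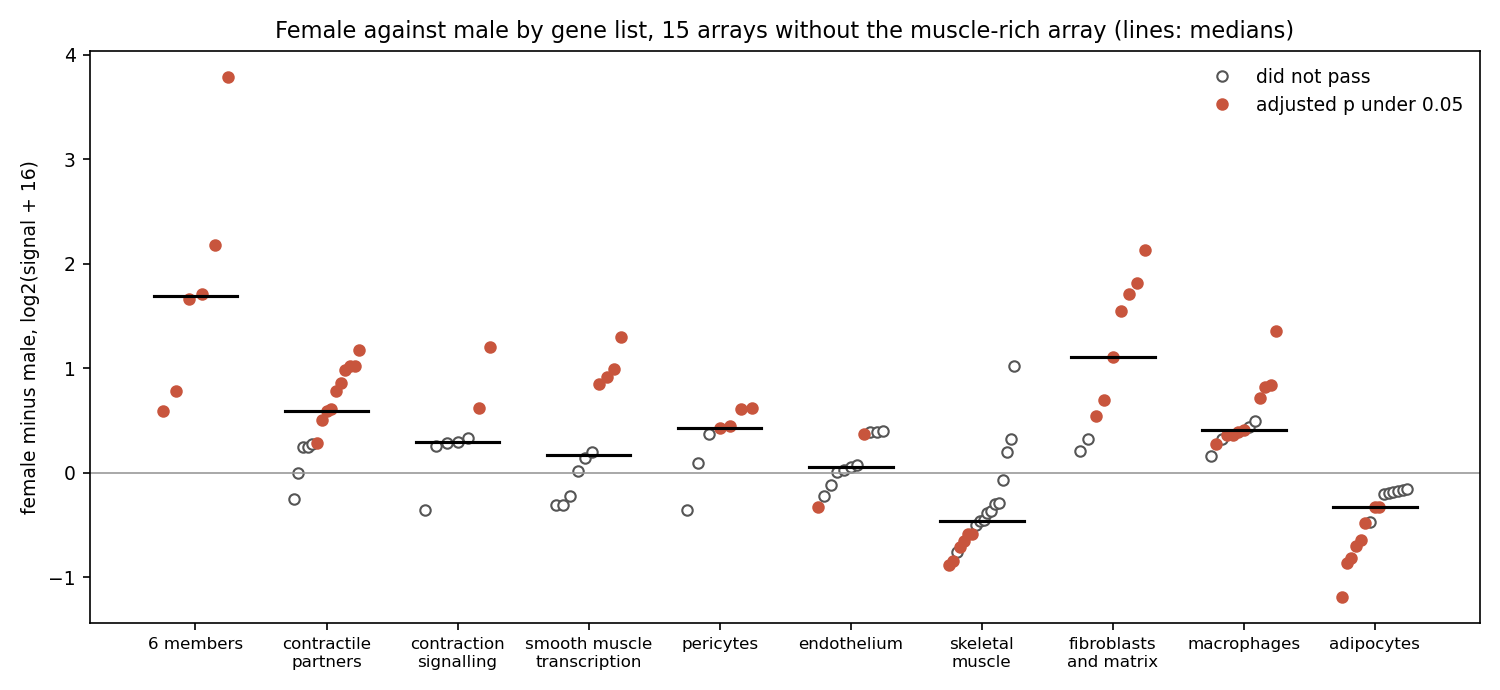
Difference between females and males on the log2(signal + 16) scale in the fit with 15 arrays, 1 point per gene, for the 6 members and 9 gene lists. Filled points passed at an adjusted p under 0.05, open points did not, and black lines are list medians. The members' median is 1.69, that of fibroblast and matrix genes 1.11, of contractile partners 0.59 and of adipocyte genes -0.33.

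Over arrays of both sexes, the genes whose signals followed the members most closely were mainly matrix genes. The 6 members were averaged into 1 profile over the 15 arrays and compared with 6715 other probe sets of single genes. The 10 genes of highest Pearson r were Col5a2 (0.99), Thbs2 (0.98), Tnc (0.98), Col3a1 (0.98), Eln (0.98), Kdelr3 (0.98), Col1a2 (0.97), Postn (0.97), Bgn (0.97) and Tpm1 (0.97). Col5a2, Col3a1 and Col1a2 encode fibrillar collagens, Eln elastin, Thbs2, Tnc and Postn matricellular proteins, and Bgn a small proteoglycan. With 16 arrays r fell to 0.77 for Col5a2, 0.74 for Col3a1, 0.75 for Postn and 0.83 for Bgn, and lay between 0.94 and 0.98 for the other 6. The 15 arrays span both sexes, and within a sex the likeness was lower: among the 8 female arrays r lay between 0.34 (Col1a2) and 0.85 (Tpm1), and among 7 male arrays between -0.33 (Bgn) and 0.66 (Col3a1). Over the 8 female arrays alone, in a ranking outside the naming rule, the 10 closest genes were Igbp1, Csrp1, Pkdcc, Clk3, Midn, Ciao2b, Ifngr1, Ndrg1, Blzf1 and Tmem214, with r from 0.89 down to 0.86. None of these was among the 10 over both sexes. Tnc, the most unequal of the 10, had a mean signal of 120.0 in males and 2183 in females. Candidates had to pass the filter on low signal (127). The male means of Tnc and of Eln (119) were below it, so their place among the candidates rests on their female arrays. These values are a description over arrays that share sex and treatment groups.

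Pairs of members were also described within each sex, and pairs of other probe sets were not counted beside them. All 15 pairs of members had a positive Pearson r over the 8 female arrays, from 0.37 (Cnn1 and Smtn) to 0.90 (Cnn1 and Tagln), with a median of 0.54. The array at 24 h had the highest signal for Myh11 (1913), Tagln (3194) and Acta2 (2447). The array at 3 h had the highest for Cnn1 (777) and the second highest for Myh11 (1911) and Acta2 (2202). Over 7 male arrays 8 of the 15 pairs were positive, from -0.77 (Acta2 and Smtn) to 0.85 (Acta2 and Mylk), with a median of 0.022. On those arrays Cnn1 signals were only 12.4 to 46.2, and the Smtn mean (118) was below the filter on low signal (127). The male pairs with either gene thus rest on low signals, and the part of this in the lower r was not tested. With the muscle-rich array, 7 of the 15 pairs were positive over 8 male arrays, from -0.90 (Acta2 and Smtn) to 0.91 (Acta2 and Mylk), and r for Myh11 and Smtn was 0.82 in place of 0.16. The correlations are a description, since arrays of a sex differ in treatment and time and share any difference of the dissected tissue.

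DHT against vehicle moved none of the 6 members past the threshold, averaged over the 6 times and both sexes. That held with 16 arrays, where 3 of 7453 probe sets passed (0.0403%, all higher), and with 15, where 4 did (0.0537%). At an unadjusted p under 0.05, 2 members, Acta2 and Mylk, were higher with DHT, beside 3.46% of all probe sets tested with 16 arrays and 2.11% with 15. Both were above both vehicle arrays of their sex on all 6 DHT arrays of males and on all 6 of females, a pattern shown by 0.322% of the probe sets tested.

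Mylk gave 1743 and 1497 on the male vehicle arrays, and 2466, 2199, 2608, 3993, 3313 and 2910.2 at the 6 DHT times in order (1 and 3 h first, 24 h last). In females it gave 3145 and 3532 with vehicle and 3979, 4051, 3605, 4498, 4342 and 4025 at those times. The 12 h array was the highest of each sex, and in females that was the array with high exocrine pancreas signals. Over all times the log2 difference from vehicle was 0.55 ± 0.15 (limma, adjusted p = 0.625) with 16 arrays and 0.44 ± 0.12 (adjusted p = 0.813) with 15. It was 0.86 ± 0.22 at 12 h (adjusted p = 0.934, 16 arrays) and 0.75 ± 0.17 with 15 arrays (adjusted p = 0.395). When 1 array was left out, the 12 h value lay between 0.60 (without the male 12 h array) and 1.13 (without the female 12 h array).

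Acta2 gave 788 and 691 on the male vehicle arrays and 892, 970.1, 989, 1084, 1019 and 1096 at the 6 times. In females it gave 1289.9 and 1276 with vehicle and 1674, 2202, 1512, 1368, 1612 and 2447. The male values lay close together, and the female values peaked at 3 and 24 h. Over all times the log2 difference from vehicle was 0.45 ± 0.14 (limma, adjusted p = 0.625) with 16 arrays and 0.41 ± 0.13 (adjusted p = 0.999) with 15. Its largest value at a single time was 0.74 ± 0.20 at 24 h (adjusted p = 0.917, 16 arrays), followed by 0.58 ± 0.20 at 3 h. With 15 arrays these were 0.71 ± 0.19 (adjusted p = 0.754) and 0.55 ± 0.19.

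Averaged over both sexes, the other 4 members were near or below vehicle with 16 arrays and above it with 15. Over all times Myh11 had a log2 difference of -0.24 ± 0.30 with 16 arrays and 0.17 ± 0.20 with 15, and Smtn -0.46 ± 0.60 and 0.31 ± 0.46. Tagln had 0.0084 ± 0.16 and 0.072 ± 0.16, and Cnn1 0.047 ± 0.27 and 0.25 ± 0.26. None of these 4 had an unadjusted p under 0.05, and Myh11 and Smtn changed sign without the muscle-rich array. For Smtn that average joins opposite signs. Without the muscle-rich array its DHT arrays differed from vehicle by -1.29 in males and 1.22 in females. Tagln was then at -0.071 in males and 0.15 in females, while Cnn1 and Myh11 were above vehicle in both sexes. The median of the 6 members was 0.028 with 16 arrays and 0.28 with 15, beside 0.036 and 0.0055 for all probe sets tested.

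At single times no member passed in limma's test, with 16 or 15 arrays. With 16 arrays, the share of all probe sets that were higher was 0% at 1, 18 and 24 h, 0.0134% at 3 h and 0.0403% at 6 and at 12 h. With 15 arrays it was between 0% (1 h) and 0.0537% (6 h), with 0.0268% at 18 h. At an unadjusted p under 0.05 with 16 arrays, Acta2 was higher at 3 h (beside 0.725% of all probe sets), Mylk at 12 h (1.4%) and 18 h (2.86%), and both at 24 h (1.52%). No member was at 1 h (1.31% of all probe sets) or 6 h (1.38%). With only 2 arrays at a time, 1 of each sex, the spread at a single time could not be measured and was borrowed from all arrays. All 6 members were positive in late (12 to 24 h) against early (1 to 6 h) DHT, beside 48.5% of all probe sets tested, from 0.036 (Tagln) to 0.31 (Mylk, ± 0.15), and none passed. When 1 array was left out, the lowest values were below 0 for Smtn (-0.27), Myh11 (-0.098), Tagln (-0.077) and Acta2 (-0.014). No probe set passed that comparison with 16 arrays, and 0.0268% did with 15.

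No gene of the contractile partner, contraction signalling or smooth muscle transcription lists passed in any DHT comparison, with 16 or 15 arrays. The medians of these lists over all times were 0.12, -0.13 and 0.073 with 16 arrays and 0.052, 0.042 and -0.046 with 15. None of the marker lists of other cell types held a gene that passed either.

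**Figure D4:**
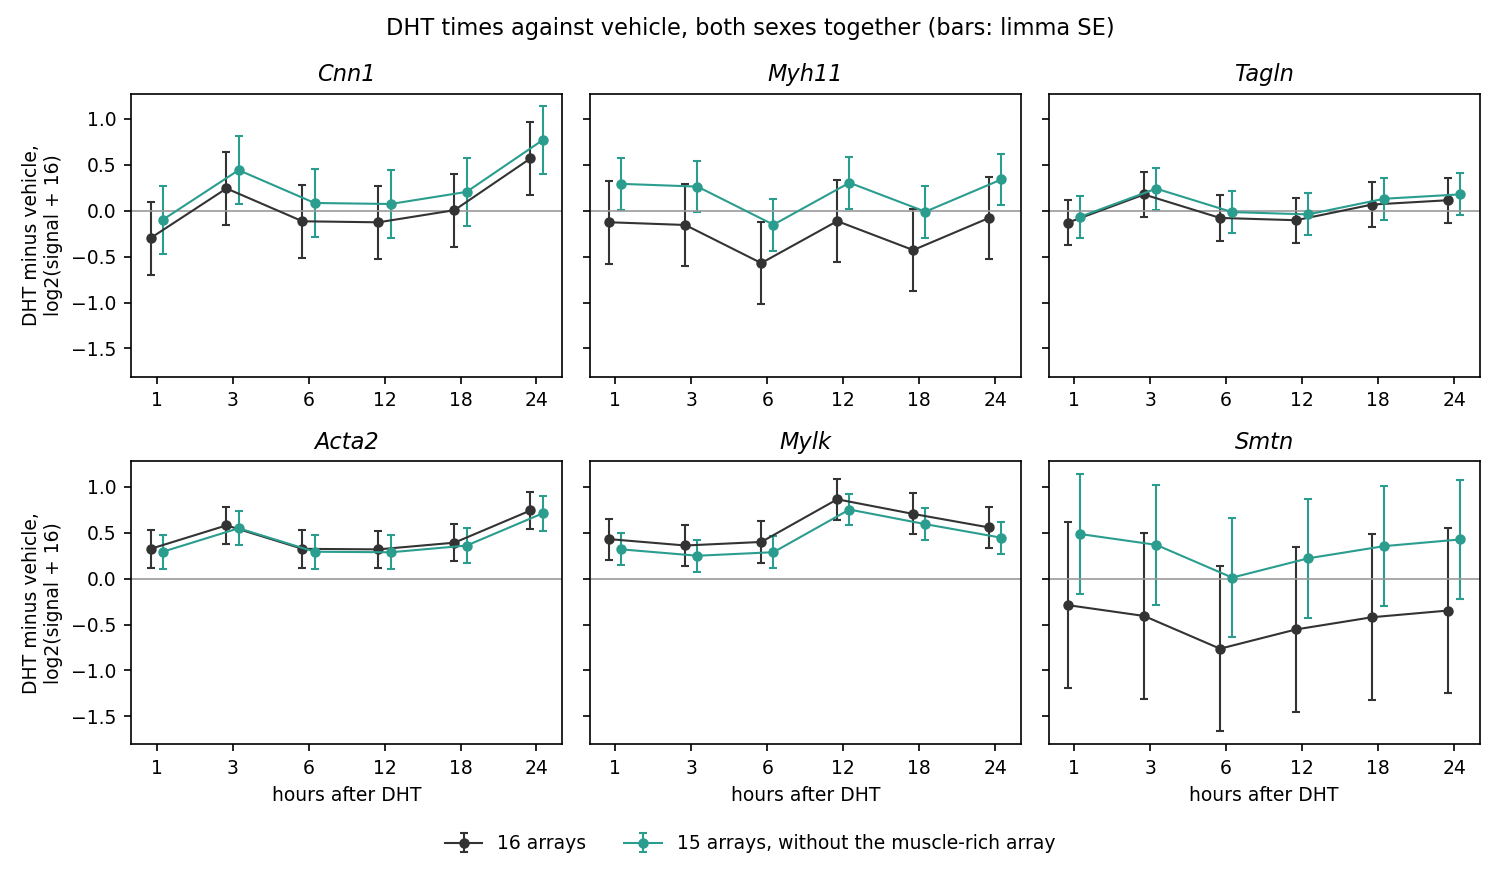
Log2 difference of each DHT time from vehicle, both sexes together, for the 6 genes, with limma's standard error as bars. Black is the fit with 16 arrays and green that with 15 arrays (no muscle-rich array). Acta2 and Mylk lie above 0 at all 6 times in both fits, with Mylk highest at 12 h (0.86 and 0.75), while Myh11 and Smtn lie lower with 16 arrays than with 15.

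The response to DHT was also compared between the sexes, by a sex by DHT term. No member passed, and no probe set did with 16 arrays, although 6.45% had an unadjusted p under 0.05. With 15 arrays 0.0268% passed. Smtn had the largest difference of the members, 3.37 ± 0.70 (limma, adjusted p = 0.608), and 2.51 ± 0.65 with 15 arrays (adjusted p = 0.999).

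Smtn gave 247 and 855 on the male vehicle arrays and 157, 95.2, 49.99, 88.0, 86.8 and 99.4 at the 6 DHT times in order. All 6 male DHT arrays were thus below both male vehicle arrays. Those vehicle arrays also had the highest skeletal muscle sums of the males (74207 and 391485, against 42859 to 73497 on male DHT arrays). The part of skeletal muscle in this pattern was not tested beyond leaving out an array and fitting a muscle covariate. In females Smtn gave 103 and 322 with vehicle and 355, 474, 488, 412, 504 and 497 at those times, all above both vehicle arrays. A pattern of this kind, higher in females and lower in males on every DHT array, was found for 10 of the 7453 probe sets tested (0.134%). The call depended on the male vehicle arrays: without the first of them, so that the muscle-rich array stood alone for male vehicle, Smtn passed (4.24, adjusted p = 0.000579), as did Myh11 (1.65, adjusted p = 0.014) and 2371 probe sets in all.

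For the other 5 members the difference in response between the sexes was 0.81 ± 0.57 for Myh11, 0.48 ± 0.54 for Cnn1, 0.29 ± 0.33 for Tagln, 0.015 ± 0.28 for Acta2 and -0.53 ± 0.26 for Mylk with 16 arrays. With 15 arrays these were -0.040, 0.11, 0.23, 0.11 and -0.42. Mylk was the member of the 6 with a negative difference with 16 arrays: its DHT arrays were above vehicle by 0.82 in males and 0.29 in females. That difference between the sexes did not pass (limma, adjusted p = 0.608 with 16 arrays and 0.999 with 15).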

How the data were processed

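Single-colour Affymetrix arrays of 12488 probe sets measured total RNA of retroperitoneal fat. The authors deposited linear signal intensities; MAS5 made them, per the submitters' processing notes, in a version not given here. Median signals were 184 to 220. Detection calls were not analysed, and precision is limited by the small number of arrays. From the deposited signals, log2(signal + 16) was fitted with limma 3.58.1 (R 4.3.3; lmFit, eBayes with trend) with sex and time as factors, over 7453 probe sets whose mean signal exceeded the 40th percentile (127). The 66 control probe sets were left out. P-values are two-sided, Benjamini-Hochberg adjusted over all probe sets tested, with a threshold of 0.05. A sex by DHT term tested the difference in response. The fit left 8 residual degrees of freedom (7 with 15 arrays, 5 with the 12 DHT arrays). The scripts were tested on simulated data.

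Genes were named by GEO's platform annotation: 10855 probe sets have 1 symbol and 396 several, and 1237 are not listed there. Lists used 1 probe set per gene, that of highest mean. Named were all members, list genes past the threshold (up to 6 in a direction) or of smallest p, and the 10 genes most like the members' mean profile; further list genes were named after their values were seen. Members and lists were chosen with earlier results of these data known. The lists were contractile partners, contraction signalling, smooth muscle transcription, and markers of smooth muscle and mural cells, pericytes, skeletal muscle, adipocytes, macrophages, endothelium, mesothelium, fibroblasts and matrix, and exocrine pancreas. Of the list of smooth muscle and mural cells, which holds the 6 members, 10 genes were tested, and 7 were higher in females with 16 arrays and 8 with 15. Among all probe sets tested, 4.74% and 8.91% were. The labels give no batch. Alternatives were other pseudocounts, no filter, quantile normalization, 1 probe set per gene, a skeletal muscle covariate, the DHT times as 1 group, each array left out, and, added after the data were seen, the 12 DHT arrays alone.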

Additional observations from a re-analysis of the deposited data

Results flagged for a closer look

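Among 12 groups of 8 arrays (6 genes in each sex), 3 held an array whose gap to its nearest neighbour was above Dixon's critical value of 0.526 of the whole range. Chance gives about 1 in 20 only where all 8 values come from 1 population. Here each group mixed vehicle and DHT arrays, and the groups share arrays, so the count has no chance rate beside it. For Myh11 in males the muscle-rich vehicle array gave 867, and the next male array 399 (gap of 0.751 of the range). For Smtn in males that array gave 855, and the next 247 (0.756). For Smtn in females the first vehicle array gave 103, and the next 322 (0.546). Smtn was also flagged because all its female DHT arrays were above, and all its male DHT arrays below, both vehicle arrays of their sex. Limma's sex by DHT term for it was 3.37 and did not pass (adjusted p = 0.608), and the vehicle levels on which it rests are the 2 pairs just given.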

How the results depend on the processing

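Females against males kept its direction for all 6 members under every alternative run, and Cnn1, Myh11, Tagln, Acta2 and Mylk passed under each of them. Smtn passed in each fit without the muscle-rich array (male vehicle replicate 2) or with the skeletal muscle covariate, and not otherwise. The count of all probe sets for female against male was 434 in the fit reported, 1103 with quantile normalization and without the muscle-rich array, 759 with the skeletal muscle covariate, 761 with the 6 times as 1 DHT group, 910 with the 12 DHT arrays only, and 271 to 1175 when 1 array was left out. Quantile normalization alone gave 403, and the cause of these shifts was not tested.

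For DHT over all times against vehicle, no member passed under any alternative. The count of probe sets was 3, became 0 with the 6 times as 1 DHT group (846 at an unadjusted p under 0.05), and lay between 1 and 4 when 1 array was left out. Cnn1 was -0.016 with a pseudocount of 1. Myh11 became 0.18 and Smtn 0.33 with quantile normalization and without the muscle-rich array, 0.13 and 0.45 with the skeletal muscle covariate, and 0.16 and 0.42 with both that covariate and without the array. With 1 array left out, Cnn1 lay between -0.052 and 0.25, Myh11 between -0.46 and 0.17, Smtn between -1.20 and 0.31, and Tagln between -0.074 and 0.072; the highest value of each came without the muscle-rich array.

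At single times, leaving out 1 array gave 0 to 1 probe sets for DHT 1 h against vehicle, 0 to 1 for DHT 3 h against vehicle, 0 to 4 for DHT 6 h against vehicle, 0 to 3 for DHT 12 h against vehicle, 0 to 2 for DHT 18 h against vehicle and 0 to 1 for DHT 24 h against vehicle. For DHT 18 h against vehicle the count was 2 with quantile normalization and without the muscle-rich array, 1 with the muscle covariate and 2 with the covariate and without the array. For DHT 24 h against vehicle it was 1 with quantile normalization and without the array. Of 576 single-time values of Cnn1, Myh11, Tagln and Smtn under the alternatives, 70 changed sign and 0 passed.

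For late against early DHT times the count was 4 with quantile normalization and without the array, 2 with the covariate and without the array, and 0 to 2 with 1 array left out. Tagln late against early DHT times was -0.0022 with the covariate and without the array, and with 1 array left out between -0.077 and 0.15, Myh11 between -0.098 and 0.25, Smtn between -0.27 and 0.36, and Acta2 between -0.014 and 0.16. For the sex difference of the DHT response the count was 2 with quantile normalization and without the array, and 0 to 2371 with 1 array left out, where 0 to 2 members passed. Its value for Myh11 was -0.041 with quantile normalization and without the array, -0.36 with the muscle covariate, and -0.040 to 1.65 with 1 array left out; for Acta2 it was -0.077 to 0.11. An array left out of a pair leaves its partner alone, which is then assumed to vary like the other groups. The labels carry no replicate numbers to pair arrays by, and the sexes were matched by time through the time factor of every fit but that with 1 DHT group. Signal over background was not measured, and male Cnn1 signals lay near the pseudocount.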
